A study of Mus musculus with 3 samples.

Results

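The genes described here are Traf1, Traf2, Traf3, Traf5, Birc2, Birc3 and Map3k14, which encode TRAF adaptors, the cellular inhibitor of apoptosis proteins (cIAPs) and the kinase NIK. They were chosen by name as the core of noncanonical NF-kB signalling and were found by gene symbol, which gave 7 of the 55536 annotated genes. RNA of the chromatin fraction was depleted of ribosomal RNA and sequenced from macrophages grown out of the bone marrow of C57BL/6J mice. All cells had received Lipid A, the part of lipopolysaccharide that Toll-like receptor 4 senses, at 100 ng/ml for 12 h, had spent the next 12 h without it, and had then received 100 ng/ml again for 60 min. The 3 libraries formed 1 group with no untreated arm, so every value is a level in cells dosed on both occasions and not a response to Lipid A. The labels call them biological replicates with separate biosamples but give a single donor entry, so any p-value covers only the spread among these samples, which may be technical. Sex and age were not collected.

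In resting cells TRAF3 holds NIK in a complex with TRAF2 and the cIAPs, and the cIAPs tag NIK for destruction. Receptors of the tumour necrosis factor family, such as CD40, draw this complex to the membrane. The cIAPs then tag TRAF3 for destruction, and NIK accumulates. NIK acts through the kinase IKK-alpha, encoded by Chuk, which leads to the processing of the Nfkb2 product and to nuclear complexes with RelB. In macrophages the cIAPs and TRAF3 also take part in signalling from Toll-like receptors. Traf1 and Birc3 are textbook targets of NF-kB itself, whereas NIK is controlled largely through the stability of its protein.

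Replicates 1, 2 and 3, prepared from 1000, 250 and 500 ng of RNA, had 12602702, 17222239 and 17042691 gene counts, and a count of 0 allowed a level of up to 0.238, 0.174 and 0.176 CPM (a gene's counts relative to the depth of its library; this limit is 3 counts and covers counting error only). No library was a copy of another, with a chi-square per gene of 61.6 to 102 between pairs. Of 7 macrophage markers, 6 had at least 10 TPM (a library-scaled level divided by transcript length) in every library, and Cx3cr1 was at 0, 2.55 and 0.10 TPM. Replicate 2 stood apart through 9 stromal markers such as collagens, with 40499 summed counts against 3 and 100 in replicates 1 and 3. By these counts, none of 6 lymphocyte and 4 neutrophil markers had more than 3 counts in any library. In a second quantification, in the layout of kallisto, the lymphocyte marker Cd3d averaged 14.4 TPM and the others at most 0.973 TPM. The part of these stromal transcripts in the values of replicate 2 was not tested, and in bulk RNA fewer cells of a type and less RNA per cell cannot be told apart, so the means without replicate 2 are given where they matter.

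Traf1 and Birc3 dominated the set. Traf1 (ENSMUSG00000026875.14, mm10 chromosome 2, 34941750 to 34961772, minus strand), an adaptor that lacks the RING domain of its relatives, had 374, 309.8 and 427 TPM in replicates 1, 2 and 3. Birc3 (ENSMUSG00000032000.17, chromosome 9, 7848699 to 7873186, minus strand), which encodes the ubiquitin ligase cIAP2, had 375, 329 and 324 TPM. Their ranges overlapped, and Traf1 was above Birc3 in 1 of 3 libraries. They averaged 370.4 ± 58.7 and 343 ± 27.9 TPM (SD, n = 3), which ranked 99 and 120 among 22028 protein-coding genes. Together they held 88.6 ± 2.28% of the TPM summed over the 7 genes.

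The other TRAF genes were far lower. Traf2 (ENSMUSG00000026942.13, chromosome 2, 25517982 to 25546940, minus strand), which recruits the cIAPs, had 16.3, 25.6 and 21.1 TPM. Traf3 (ENSMUSG00000021277.16, chromosome 12, 111166370 to 111267153, plus strand), which binds NIK, had 11.1, 14.0 and 7.65 TPM. Traf5 (ENSMUSG00000026637.13, chromosome 1, 191997205 to 192092559, minus strand), an adaptor related to TRAF2, had 6.00, 7.95 and 4.15 TPM. In all 3 of these genes replicate 2 was the highest library, and the values of Traf2 did not overlap those of Traf3.

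Birc2 and Map3k14 lay between and below. Birc2 (ENSMUSG00000057367.12, chromosome 9, 7818227 to 7837064, minus strand) encodes cIAP1 and lies 11.6 kb downstream of Birc3 on the same strand. It had 35.8, 42.7 and 56.2 TPM, with the highest value in replicate 3. Map3k14 (ENSMUSG00000020941.7, chromosome 11, 103219762 to 103267472, minus strand) had 6.92, 12.0 and 5.80 TPM, again highest in replicate 2. The mean level in TPM thus ran from Traf1 and Birc3 through Birc2 (44.9 ± 10.4), Traf2 (21 ± 4.64), Traf3 (10.9 ± 3.17) and Map3k14 (8.23 ± 3.29) to Traf5 (6.03 ± 1.90; SD, n = 3 each). Ranges of neighbours in that order overlapped for Traf1 and Birc3, for Traf3 and Map3k14, and for Map3k14 and Traf5, and did not overlap for the other neighbours. The highest mean was 61.4 times the lowest.

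All 7 genes had at least 1 TPM in every library, 4 had at least 10 TPM and 2 had at least 100 TPM. Among protein-coding genes these shares were 38.9, 16.7 and 2.15%. Transcript values in the layout of kallisto, a second quantification of the same reads, changed part of the order. They put Birc3 first at 551 ± 53.6 TPM, above Traf1 (374 ± 66.9 TPM) in 3 of 3 libraries. They raised Traf5 to 40.2 ± 16.5 TPM, which moved it from last to the fourth place, and Traf3 to 18.2 ± 3.32 TPM (SD, n = 3 each).

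**Figure D1:**
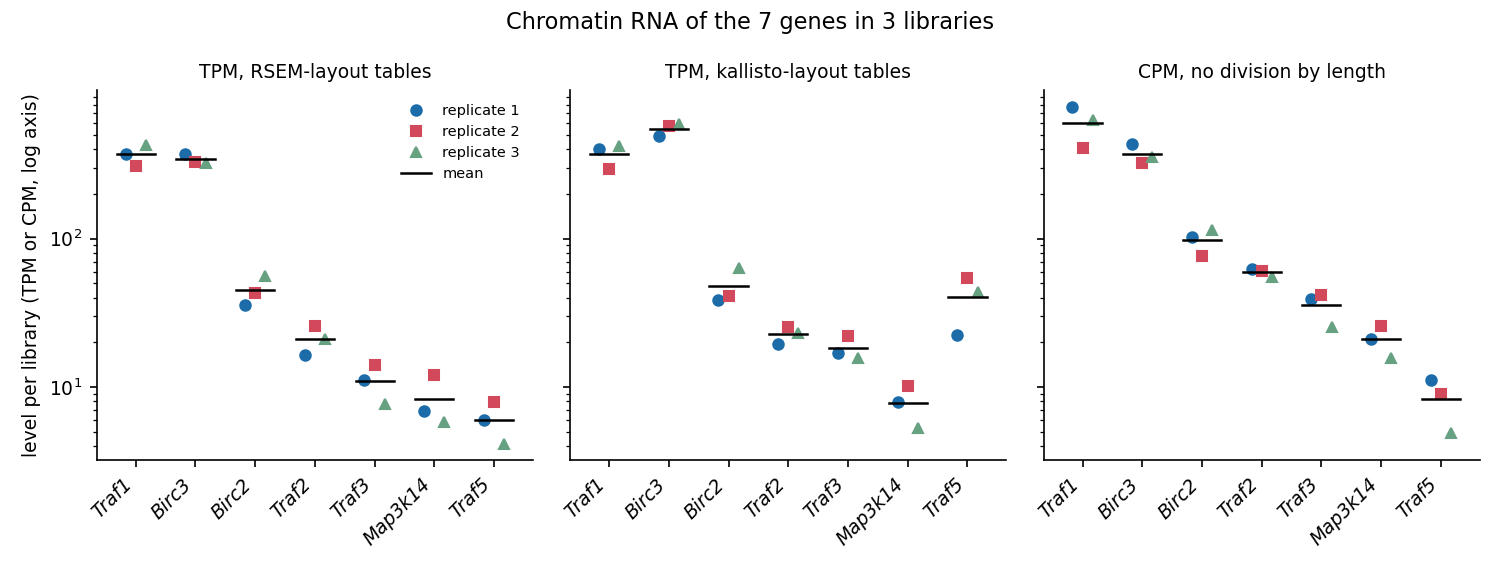
Level of each gene in each library on a log axis, as TPM of the RSEM-layout tables, as TPM of the kallisto-layout tables and as CPM, which is not divided by length; points are libraries and bars are means of 3. Traf1 and Birc3 lie above the other 5 genes in every panel, and Traf5 averages 6.03 TPM in the first panel and 40.2 TPM in the second.

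Pairs of genes with related roles were compared within libraries as differences in log2(TPM + 1). Birc3 exceeded Birc2 by 3.35, 2.92 and 2.50, a mean of 2.93 ± 0.42 (SD, n = 3) and 7.63-fold in mean TPM. Traf1 exceeded Traf2 by 4.44, 3.55 and 4.28, a mean of 4.09 ± 0.47 (SD, n = 3) and 17.7-fold in mean TPM. Map3k14 minus Traf3 was -0.61, -0.21 and -0.35, a mean of -0.39 ± 0.20 (SD, n = 3). The sign of each difference was the same in every library. By exact two-sided sign-flip permutation the test gave p = 0.25 for each of the 3 pairs, adjusted p = 0.25, which is the smallest p that 3 libraries allow, so no pair could pass a threshold of 0.05.

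Part of the variation within the set followed replicate 2. Traf2, Traf3, Traf5 and Map3k14 (4 of 7) had their highest TPM there, as did 73.2% of protein-coding genes with a mean of at least 5 TPM. Traf1 alone among the 7 had its lowest TPM in replicate 2, as did 7.65% of those genes. In CPM, 2 of the 7 genes, Traf3 and Map3k14, were highest in replicate 2, against 50.4% of protein-coding genes, and Traf1, Birc2 and Birc3 were lowest there, against 21.2%. Without replicate 2 the mean levels of Traf1 and Map3k14 were 401 and 6.36 TPM, and no mean of the 7 genes moved by 1.5 times when any library was left out.

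The protein-coding genes nearest to Traf1 in level over the 3 libraries, by root mean square difference in log2(TPM + 1), were Fam20c, Cers6 and Nfkbiz, at distances of 0.0433, 0.145 and 0.149. Fam20c, which encodes a secretory-pathway kinase, had 368, 315 and 447 TPM. Cers6, a ceramide synthase gene, had 412, 296 and 372 TPM. Nfkbiz, which encodes a nuclear IkB protein, had 347, 307 and 363 TPM. They were picked on the same 3 values per gene, so that their low values in replicate 2 follow from the choice.

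The 38 annotated isoforms of the 7 genes were of 4 classes, 21 protein coding, 7 retained intron, 9 processed transcript (a spliced RNA with no annotated reading frame) and 1 subject to nonsense-mediated decay. RNA of the chromatin fraction may include transcripts not yet spliced, and their intron reads can be assigned only to isoforms that hold intron bases. The part of such reads in the isoform levels and shares given here was not tested. The most abundant Traf1 isoform was Traf1-208, a single exon of 1980 bases that holds all of intron 5 of the long isoform Traf1-202. It had 139, 133 and 164 TPM, which was 39.5 ± 3.12% of the TPM of the gene (SD, n = 3). The protein-coding Traf1-209, whose exons flank the same intron, had 68.4, 39.5 and 47.9 TPM, lower than Traf1-208 in all 3 libraries. Traf1-201, Traf1-202, Traf1-203 and Traf1-207 also lack intron 5, so the comparison with Traf1-209 covers only part of the spliced RNA. The coding isoforms, none of which holds intron 5, together had 149.60, 99.61 and 166.10 TPM. That was above Traf1-208 in replicates 1 and 3 and below it in replicate 2, where Traf1-203 had a further 43.0 TPM. With Traf1-203 added, the isoforms that lack intron 5 were together above Traf1-208 in all 3 libraries. The other retained-intron isoform of Traf1, which ends inside intron 5, was left out here. Traf1-209, of 386 bases, rests on 236, 69 and 100 expected counts, against 3705, 3037 and 4033 for Traf1-208. In the kallisto layout Traf1-208 had 119, 80.0 and 109 TPM and Traf1-209 had 104, 102 and 129 TPM. The order of this pair was thus kept in replicate 1 and turned round in replicates 2 and 3. The remaining Traf1 isoforms with at least 10% of the TPM were Traf1-203 (12.3%), Traf1-207 (11.1%) and Traf1-201 (10.1%).

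The ends of the introns that these isoforms keep are shown because reads across them distinguish unspliced from spliced RNA. Exon bases are in lower case and intron bases in capitals, read 5′ to 3′ on the transcribed strand of GRCm38. The intron of Traf1 measures 1678 bases and that of Traf2 1980 bases. For Traf5-203 the 5′ end of an intron is given, since that isoform holds only part of it.
Traf1 intron 5, 5′ end, chr2:34957939-34957978, minus strand: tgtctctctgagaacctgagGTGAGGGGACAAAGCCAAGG
Traf1 intron 5, 3′ end, chr2:34956261-34956300, minus strand: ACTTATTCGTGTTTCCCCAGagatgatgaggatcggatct
Traf2 intron 5, 5′ end, chr2:25530267-25530306, minus strand: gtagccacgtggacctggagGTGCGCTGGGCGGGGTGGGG
Traf2 intron 5, 3′ end, chr2:25528287-25528326, minus strand: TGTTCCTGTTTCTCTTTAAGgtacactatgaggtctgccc
Traf5 intron 7, 5′ end, chr1:192057120-192057159, minus strand: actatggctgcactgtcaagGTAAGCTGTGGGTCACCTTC
Each 5′ end shown begins with GT and each 3′ end shown closes with AG, the usual pair of the major spliceosome.

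Traf2 showed a like division. Traf2-203, which keeps intron 5 of Traf2-201, had 8.22, 11.1 and 9.05 TPM and 45.6 ± 4.21% of the TPM of the gene. The protein-coding Traf2-201 had 5.95, 9.77 and 8.72 TPM, or 38.7 ± 2.44%, and the shorter coding isoform Traf2-202 held 15.6 ± 2.66% (SD, n = 3 each). The kept-intron isoform was the highest of the 3 in every library. The coding isoforms, which lack intron 5, together had 8.06, 14.44 and 12.03 TPM, below Traf2-203 in replicate 1 and above it in replicates 2 and 3. Of the 31-base words of Traf2-203, 4.38% also occur in other annotated genes.

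Traf3 RNA was mostly assigned to coding isoforms. The full-length Traf3-201, of 7060 bases, had 4.26, 6.46 and 3.40 TPM. Traf3-204, of 645 bases, had 5.61, 4.81 and 2.52 TPM. Traf3-204 was above Traf3-201 in replicate 1 and below it in replicates 2 and 3. In the kallisto layout Traf3-204 was above in all 3 libraries, with 10.2, 11.4 and 9.67 TPM against 3.23, 3.47 and 2.46 TPM for Traf3-201. Their shares of the TPM were 43.0 ± 4.09% and 39.3 ± 9.79%, whereas their shares of the expected counts were far apart because TPM divides by length, with 3.30 to 8.15% of counts for Traf3-204. The retained-intron isoform Traf3-205 held 12.7 ± 1.5% of the TPM (SD, n = 3 each). Despite its class, it holds no whole intron of Traf3-201. Introns of Traf3-201 cover 4.83% of the bases of Traf3-205, against 16.9% of those of the coding Traf3-204. With isoforms of at least 1000 bases only, a setting chosen after the data had been seen, Traf3 averaged 6.59 ± 2.24 TPM.

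The level of Traf5 depended on 1 isoform. Traf5-203, a retained-intron isoform of 2084 bases of which 84.7% lies in introns of Traf5-201, had 2.04, 3.02 and 1.60 TPM in the RSEM layout. In the kallisto layout it had 18.7, 50 and 41.0 TPM, 16.5 times as much on average, and 89.7 ± 5.52% of the TPM of the gene. Of its 31-base words, 11.9% occur on the same strand and 8.81% on the opposite strand of transcripts of other genes, 105 genes in all. Only 0.283% of protein-coding genes with a mean of at least 5 TPM had a larger ratio of kallisto to RSEM level than Traf5, whose ratio was 6.66, against a median of 1.17. The full-length coding isoform Traf5-201 had 1.73, 1.95 and 0.740 TPM in the RSEM layout and 1.93 ± 0.629 TPM in the kallisto layout (SD, n = 3). Traf5-204 and Traf5-202 held 22.9 and 16.5% of the RSEM TPM.

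**Figure D2:**
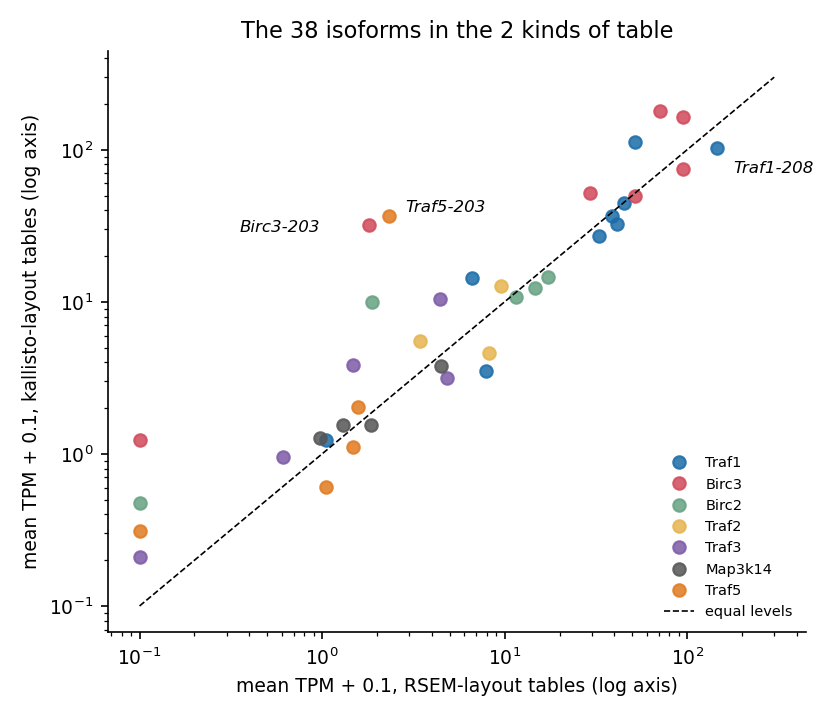
Mean TPM + 0.1 of each of the 38 isoforms over 3 libraries in the RSEM-layout tables (horizontal, log axis) and the kallisto-layout tables (vertical, log axis), coloured by gene, with a dashed line of equal levels. Traf5-203 lies far above the line at 2.22 and 36.6 TPM, as does Birc3-203 at 1.70 and 31.7 TPM, and Traf1-208 lies below it.

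The cIAP genes differed in where their RNA was assigned. For Birc2, the coding isoform Birc2-202 begins inside exon 2 of the coding isoform Birc2-204. All exon bases of Birc2-202 also belong to Birc2-204, so no exon read is specific to Birc2-202. Birc2-202 had 20.4, 12.9 and 18.4 TPM and Birc2-204 had 5.63, 16.0 and 22.0 TPM. Birc2-202 was the higher in replicate 1 and Birc2-204 in replicates 2 and 3, so the order of the pair was not stable over libraries. Birc2-203, a retained-intron isoform at the 5′ end of the gene with 94.4% of its bases in intron 1 of Birc2-204, had 7.31, 12.9 and 13.9 TPM, or 25.1 ± 4.96% (SD, n = 3).

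For Birc3, short isoforms at the 5′ end of the gene held much of the TPM. Birc3-206 and Birc3-205, of 360 and 355 bases, begin at the first exon and lie to 90.3 and 78.9% in introns of the full-length Birc3-201. Birc3-206 had 118, 79.2 and 87.2 TPM from 365, 116 and 154 expected counts. Birc3-205 had 70.1, 82.1 and 59.2 TPM from 211, 116 and 101 expected counts. The full-length Birc3-201 had 73.5, 94.6 and 116 TPM from 2688, 3017 and 4006 expected counts, and Birc3-202, which ends inside the gene, had 45.1, 64.4 and 44.8 TPM. Birc3-202, though of the coding class, lies to 54.1% in introns of Birc3-201 and held 32.9, 40.7 and 28.1% of the counts of the gene. Of the 31-base words of Birc3-202, 12.9% also occur in other annotated genes, 1574 in all. Isoforms shorter than 1000 bases held 56.8 ± 10.1% of the TPM of Birc3 but 9.49 ± 7.41% of its counts (SD, n = 3 each).

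The TPM of Birc3 therefore rests on how short isoforms are scaled. With isoforms of at least 1000 bases only, chosen after the data had been seen, Birc3 had 119, 159 and 161 TPM and Traf1 had 300.1, 263 and 366 TPM, and Birc3 then lay below Traf1 in 3 of 3 libraries. Birc3 still exceeded Birc2 by 1.75 in log2(TPM + 1), against 2.93 with all isoforms. Birc3-207, the isoform of the nonsense-mediated decay class, had 65.5, 7.10 and 14.9 TPM, high in replicate 1 only, and 43.9% of its 31-base words also occur in 2 other annotated genes. Of the words of Birc3-201, 16.6% occur in 4 other genes, so the division of reads there is uncertain.

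**Figure D3:**
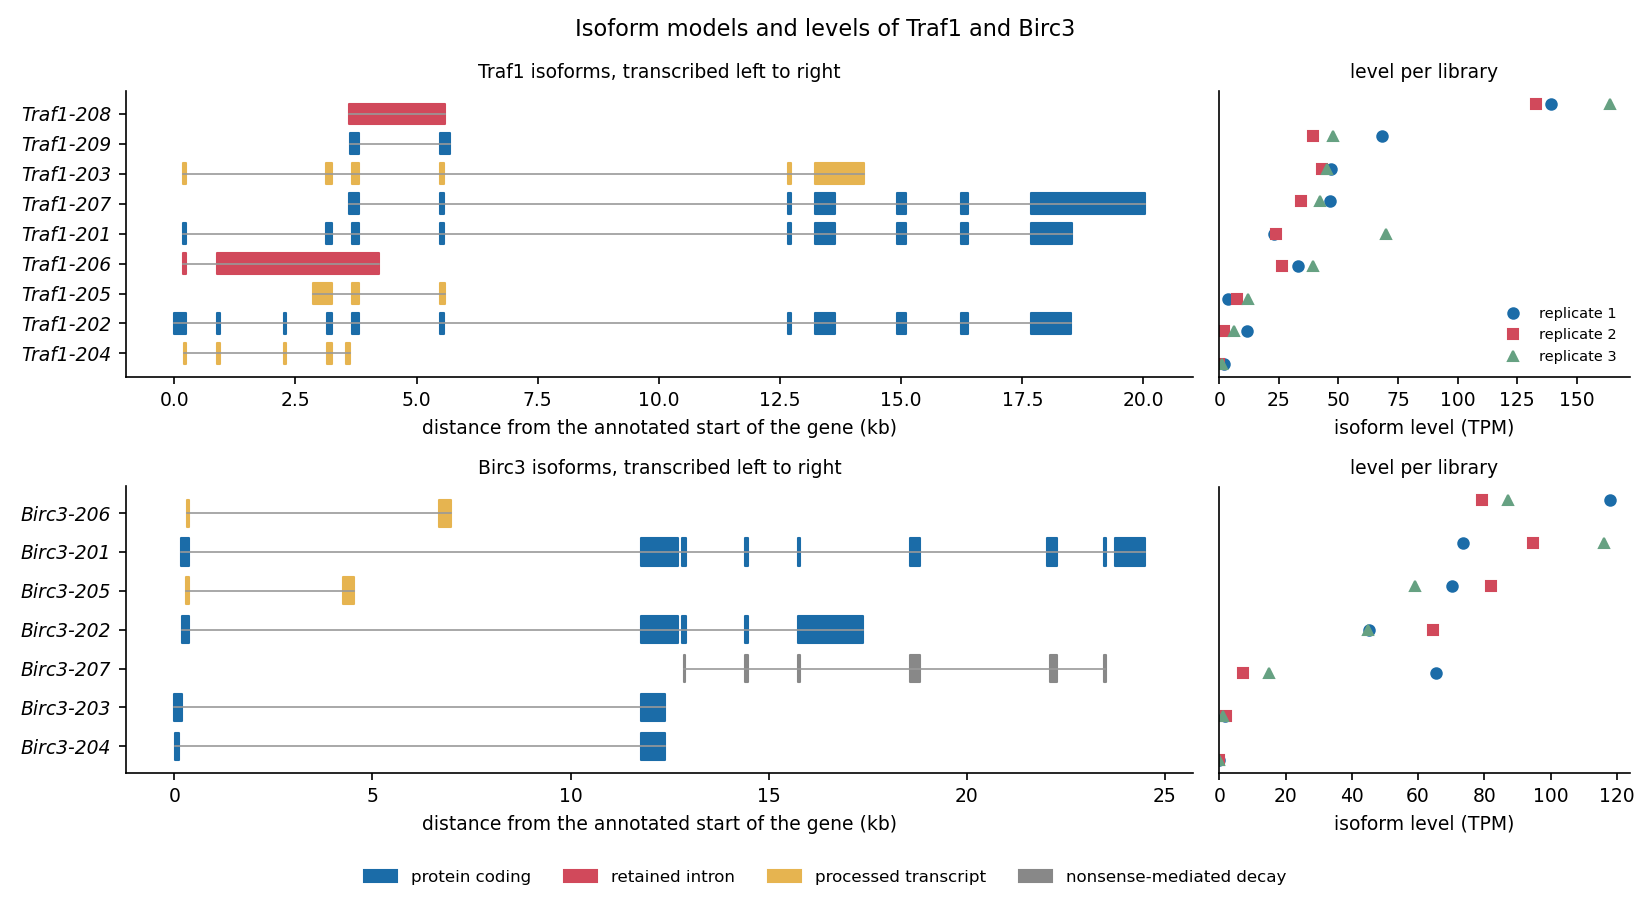
Exon models (boxes) of the isoforms of Traf1 and Birc3 by distance in kb from the annotated start of the gene, coloured by class, with the TPM of each isoform in each library beside them. Traf1-208, a single box across intron 5, has the highest level of the Traf1 isoforms at 133 to 164 TPM, and the 2 short isoforms Birc3-206 and Birc3-205 lie at the 5′ end of Birc3.

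Map3k14 was the one gene of the 7 with a single coding isoform. Map3k14-201 had 3.20, 6.25 and 3.76 TPM, or 54.4 ± 9.5% of the TPM, and 75.4 ± 4.69% of the counts (SD, n = 3 each). The processed transcript Map3k14-203, of which 59.6% lies in introns including all of intron 5, had 1.40, 2.68 and 1.19 TPM, or 21 ± 1.15%. The short Map3k14-202 and Map3k14-204 held 14.1 and 10.4%. Map3k14-204 was at 1.53, 1.10 and 0 TPM, from 13, 7 and 0 expected counts.

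The balance of retained-intron over protein-coding TPM was tested in every gene with both classes and a summed mean of at least 5 TPM, as log2 of the ratio with 0.1 added to each part, with limma and Benjamini-Hochberg adjustment over 4311 genes. Birc3 and Map3k14 have no isoform of the retained-intron class and were not tested. Of the 5 genes tested, Traf3 and Birc2 had more protein-coding TPM at an adjusted p under 0.05, and 0 had more retained-intron TPM by limma, with Traf5 alone past an unadjusted p of 0.05. Over all genes tested, 25.6% were called with the protein-coding class higher and 24.3% with the retained-intron class higher. In Traf3 the retained-intron class had 1.22, 1.85 and 1.06 TPM against 9.87, 12.13 and 6.59 TPM for the coding class. That is a log2 ratio of -2.70 (SE 0.21, limma adjusted p = 0.00318). Its retained-intron class is Traf3-205 alone, and only 4.83% of the bases of Traf3-205 lie in introns of the full-length isoform. The ratio of Traf3 therefore compares annotated classes and says little about kept introns. In Birc2 the classes had 7.31, 12.93 and 13.88 TPM against 26.06, 28.87 and 40.31 TPM, a log2 ratio of -1.50 (SE 0.23, limma adjusted p = 0.00942).

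Traf1, Traf2 and Traf5 did not pass. Traf1 had 172.26, 159.87 and 202.77 TPM in retained-intron isoforms against 149.60, 99.61 and 166.10 TPM in coding ones, a log2 ratio of 0.39 (SE 0.21, limma adjusted p = 0.19). Traf2 had a log2 ratio of -0.25 (SE 0.21, limma adjusted p = 0.363) and Traf5 of 0.55 (SE 0.20, limma adjusted p = 0.0818). The calls of Traf1 and Traf5 changed with the unit, and Traf2 changed sign but was called in no setting. With kallisto TPM the ratio of Traf1 was -0.60 (adjusted p = 0.0415), that of Traf2 0.35 (adjusted p = 0.134) and that of Traf5 3.74 (adjusted p = 0.000999), and with expected counts those of Traf1 and Traf5 were 0.70 (adjusted p = 0.0379) and 0.84 (adjusted p = 0.0175), all by limma. Traf3 was called in every setting in which it was tested, and the call of Birc2 was lost without replicate 3 (limma adjusted p = 0.0647).

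**Figure D4:**
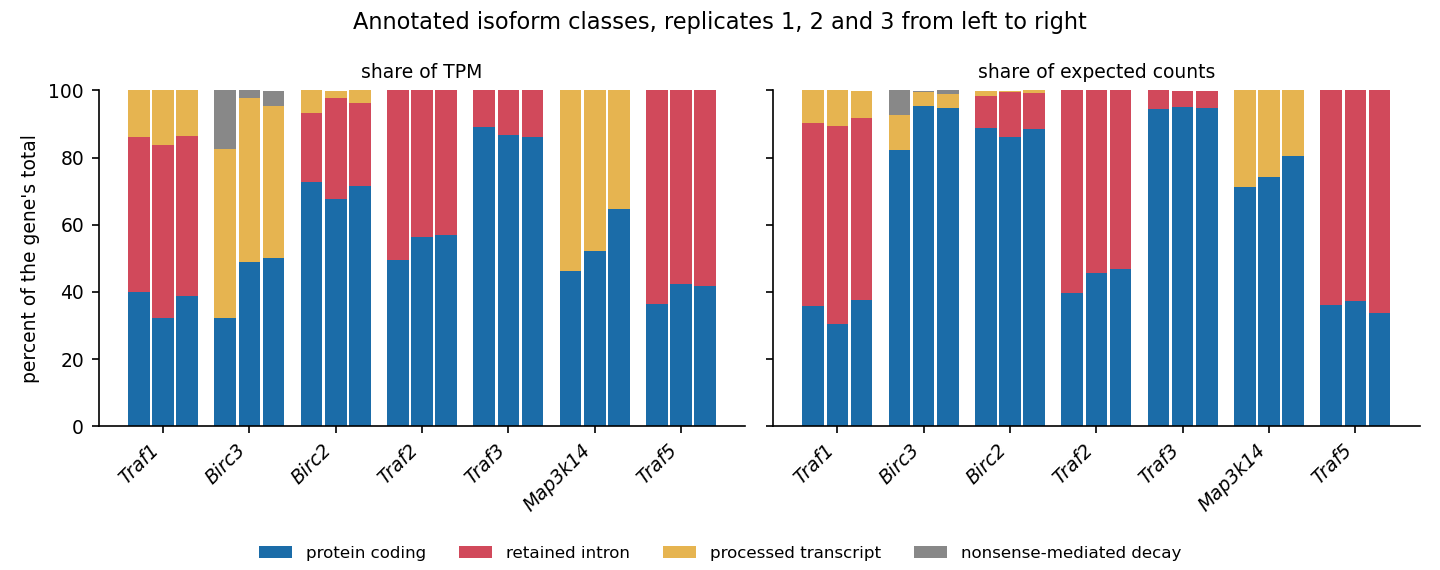
Share of the TPM (left) and of the expected counts (right) of each gene held by isoforms of each annotated class, in percent, with replicates 1, 2 and 3 as bars from left to right. Retained-intron isoforms hold 48.4% of the TPM of Traf1 and 12.7% of that of Traf3 on average, and the processed transcripts of Birc3 hold 48.2% of its TPM but 6.30% of its counts.

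The 300 bases around the start of each gene, 250 before and 50 after it, were taken from RefSeq (GRCm38.p6), in which all 7 genes were found with 8 promoters. CG pairs, the sites of DNA methylation, numbered 4 in Traf1, 7 in Birc3, 17 in Traf5, 28 in Traf2, 25 in Map3k14, 59 in Traf3 and 34 and 21 in the 2 promoters of Birc2. The median of all 32851 promoters was 7, with quartiles of 3 and 20. Traf1 and Birc3, with the highest levels of the 7, had the fewest CG pairs. This is a description of 7 genes with no test. The Traf1 window is set on the start of Traf1-202, which held 1.72% of the TPM of the gene. The Birc3 window is set on the start of Birc3-204, which had 0 TPM in each library. In both genes the isoforms with at least 10% of the TPM start outside the window, so the CG pairs at their starts were not counted. The 250 bases before the start are shown for Traf1 and Birc3 and for Traf3, which had the most, with CG pairs in capitals.
Traf1, chr2:34961773-34962022, minus strand: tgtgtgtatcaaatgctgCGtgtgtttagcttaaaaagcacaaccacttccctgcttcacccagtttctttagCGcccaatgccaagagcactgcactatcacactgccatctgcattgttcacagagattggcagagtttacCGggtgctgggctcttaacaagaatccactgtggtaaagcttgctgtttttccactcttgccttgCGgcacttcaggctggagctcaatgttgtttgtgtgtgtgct
Birc3, chr9:7873171-7873420, minus strand: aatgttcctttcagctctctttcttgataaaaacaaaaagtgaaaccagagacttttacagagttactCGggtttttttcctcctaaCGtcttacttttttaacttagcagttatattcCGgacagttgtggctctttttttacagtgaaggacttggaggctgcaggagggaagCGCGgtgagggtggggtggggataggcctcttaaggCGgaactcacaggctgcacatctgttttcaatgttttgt
Traf3, chr12:111166120-111166369, plus strand: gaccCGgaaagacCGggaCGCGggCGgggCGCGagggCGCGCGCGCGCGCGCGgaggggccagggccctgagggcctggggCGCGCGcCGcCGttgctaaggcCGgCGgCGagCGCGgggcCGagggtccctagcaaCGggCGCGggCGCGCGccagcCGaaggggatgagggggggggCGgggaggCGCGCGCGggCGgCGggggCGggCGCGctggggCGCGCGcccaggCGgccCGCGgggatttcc
The NF-kB consensus, searched on both strands of the 300 bases, matched in Traf3 alone of the 7 genes, as the word GGGGATTTCC in the last bases before the start, and in 4.51% of all promoters. That is a match of letters in a short window and not a site, and its absence from the other windows says only that these letters are not in them.

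**Figure D5:**
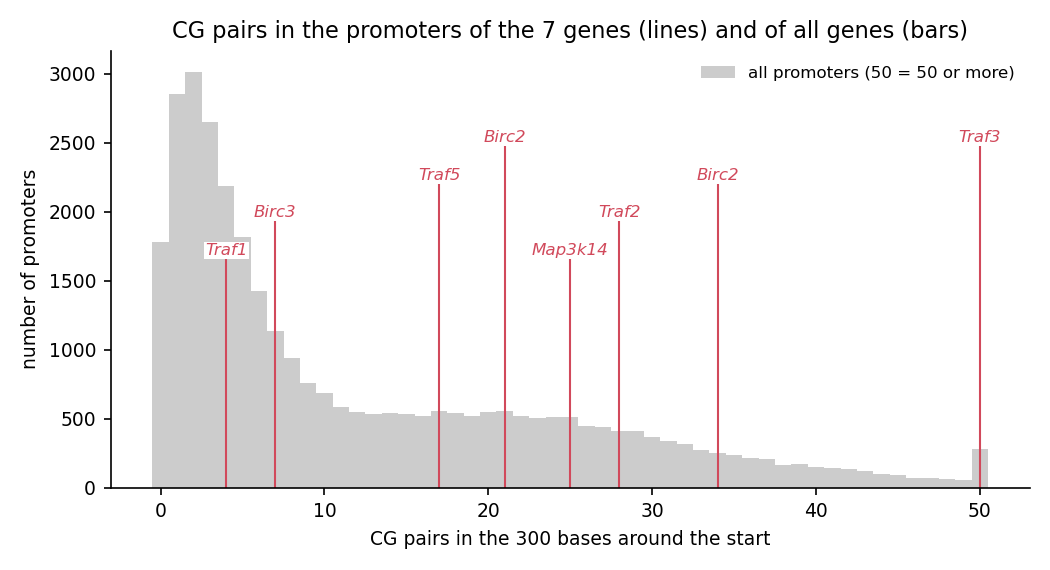
Number of RefSeq promoters (vertical) by their count of CG pairs in 300 bases (horizontal; counts of 50 or more share the last bar), with lines for the 8 promoters of the 7 genes. Traf1 and Birc3 lie at 4 and 7 pairs, the Birc3 value at the median of all promoters, and Traf3, with 59, lies in the last bar.

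Other annotated genes overlap 4 of the 7. The antisense pseudogene Gm13433 within Traf2 had 9, 8 and 8 counts, and 1700028N14Rik on the strand of Map3k14 had 2, 4 and 3 counts. Gstp-ps within Traf5 had 6, 3 and 6 counts, and Gm26879, antisense at the start of Traf5, had 2, 0 and 2 counts. The gene 4930595D18Rik, antisense to Traf3, had 1, 0 and 0 counts. Whether the counting used strand is not given in the sources used here, so reads of overlapping genes cannot be told apart.

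The 60 other genes of the pathway, in 9 lists by role, were set beside the 7. At least 1 TPM in every library was found for 38 of them, at least 10 TPM for 25 and at least 100 TPM for 8. The shares of all protein-coding genes at these levels were 38.9, 16.7 and 2.15%. The mean of 20 of the 60 moved by over 1.5 times, or to or from 0, in the kallisto layout, 18 of them upward, and that of 7 moved so without replicate 2, settings chosen for these genes after the data had been seen. Among receptors, 3 of 12 had at least 10 TPM throughout. Cd40, the receptor of CD40 ligand, had 681, 343 and 770.4 TPM, lowest in replicate 2, and 1711 TPM on average in the kallisto layout. Tnfrsf1b, which encodes TNF receptor 2 and binds TRAF2, had 191, 210.3 and 259 TPM, and Tnfrsf14, the receptor HVEM, had 57.8, 94.7 and 51.5 TPM. Ltbr, the lymphotoxin-beta receptor, averaged 7.37 ± 2.26 TPM and Tnfrsf11a, the receptor RANK, 12.4 ± 5.01 TPM (SD, n = 3 each). The kallisto layout gave higher means for Tnfrsf14 (138 TPM), Ltbr (24.6 TPM) and Tnfrsf11a (19.4 TPM). Tnfrsf13c, the BAFF receptor of B cells, was listed at 0 in all 3 libraries of the RSEM layout and averaged 3.72 TPM in the kallisto layout. Cd27, Tnfrsf13b, Tnfrsf8 and Tnfrsf4 averaged 4.26, 3.24, 2.43 and 1.28 TPM, and in the kallisto layout Cd27 averaged 11.2 and Tnfrsf4 2.88 TPM. Tnfrsf12a, the receptor of TWEAK, had 0.530, 4.16 and 2.76 TPM, a mean of 2.48 TPM that was 1.65 TPM without replicate 2. Tnfrsf9, the 4-1BB receptor, had 0, 1 and 0 counts.

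Of 12 ligands, only Tnfsf9, the gene of the 4-1BB ligand, had at least 10 TPM throughout, at 147, 106 and 211 TPM. Tnfsf13 and Tnfsf12, the genes of APRIL and TWEAK, averaged 4.76 ± 1.22 and 4.32 ± 1.33 TPM (SD, n = 3 each). Tnfsf13b, the BAFF gene, averaged 1.16 ± 0.179 TPM and Ltb 2.08 ± 0.324 TPM. Tnfsf4 had 0.570, 0.530 and 2.11 TPM, highest in replicate 3. Lta, Tnfsf14, Tnfsf8 and Cd70 had means of 0.457, 0.357, 0.167 and 0.173 TPM, the last of which was 0.701 TPM in the kallisto layout. Tnfsf11, the gene of RANK ligand, had 0, 4 and 0 counts, and Cd40lg had no count in any library.

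All 3 kinase-complex genes and all 5 NF-kB subunit genes had at least 10 TPM in every library. Chuk had 51.1, 91.8 and 84.3 TPM, Ikbkb, which encodes the kinase of the canonical arm, 121, 139 and 206 TPM, and the scaffold gene Ikbkg 14.8, 18.5 and 14.4 TPM. Nfkb2 had 139, 142 and 202 TPM and Relb 73.2, 79.1 and 85.6 TPM, both above every value of Map3k14 and Traf3. Nfkb1, Rela and Rel averaged 349.6 ± 128, 53.8 ± 12.6 and 90.1 ± 29.4 TPM (SD, n = 3 each), and Rela averaged 99.3 TPM in the kallisto layout.

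Regulators were split between high and low genes, with 4 of 10 at or above 10 TPM in every library. Tnfaip3, which encodes the ubiquitin editor A20, had 617, 474 and 664 TPM, Tank, a TRAF-binding protein gene, had 464, 370.1 and 585 TPM, and the ubiquitin ligase gene Peli1 had 105, 95.2 and 165 TPM. All 3 were lowest in replicate 2, as were Traf1 and 7.65% of protein-coding genes with a mean of at least 5 TPM. Cyld, Zfp91, Otub1, Traf3ip2 and Traf3ip3 were highest there, as were 73.2% of those protein-coding genes. The deubiquitinase gene Cyld averaged 14.0 ± 6.53 TPM and Otud7b, whose product acts on TRAF3, averaged 8.23 ± 3.59 TPM. Zfp91, whose product modifies NIK, averaged 14.5 ± 6.65 TPM, and Otub1 12.9 ± 4.22 TPM (SD, n = 3 each). Traf3ip2 averaged 5.22 ± 1.84 TPM, or 14.0 TPM in the kallisto layout. Traf3ip3 had 2.31, 12.5 and 3.84 TPM, highest in replicate 2, with a mean of 6.20 TPM and of 3.08 TPM without that library. Nlrp12 was listed at 0 in the RSEM layout and averaged 1.5 TPM in the kallisto layout, where Otud7b averaged 25.1 and Otub1 22.1 TPM.

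Of the other TRAF genes, Traf6, the adaptor of Toll-like receptor signalling, had 16.9, 21.9 and 24.2 TPM, a range that overlapped that of Traf2. Traf7 averaged 83.6 ± 14.9 TPM. Traf4 had 0.820, 3.49 and 0.640 TPM, a mean of 1.65 TPM that was 0.730 TPM without replicate 2. Of 8 other genes with the domain that defines inhibitors of apoptosis, 5 had at least 10 TPM throughout. Birc6 had 97.7, 155 and 126 TPM and Xiap, the caspase inhibitor, 37.1, 58.4 and 67.8 TPM, both below Birc3 in every library. Naip2, Naip5 and Naip6, sensors of bacterial ligands with near copies among which reads may be divided, averaged 20.6, 40.8 and 48.6 TPM. Birc5, a gene of cell division, had 0.880, 2.99 and 1.08 TPM, a mean of 1.65 TPM that was 0.980 TPM without replicate 2 and 6.30 TPM in the kallisto layout. Naip1 averaged 0.780 ± 0.0917 TPM, or 1.80 TPM in the kallisto layout, and Birc7 had no count in any library. The genes of the antagonists of these proteins, Diablo and Htra2, averaged 12.4 ± 2.80 and 21.7 ± 10.1 TPM (SD, n = 3 each), and Diablo averaged 22.9 TPM in the kallisto layout.

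Of 5 genes named as noncanonical targets in lymphoid stroma, Cxcl13, Ccl19, Ccl21a and Madcam1 had no count in any library. In the kallisto layout Cxcl13 averaged 0.185 TPM. Cxcl12, which is also one of the 9 stromal markers, had 0, 539 and 0 counts in replicates 1, 2 and 3.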

How the data were processed

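Chromatin-fraction RNA of 3 libraries of 1 group was analysed. Expected counts and TPM per gene and transcript were deposited by the authors in the layout of RSEM, and a second set of transcript tables, holding estimated counts beside TPM, in that of kallisto. The tables name mm10 and GENCODE M21, per the labels and file headers; aligner, strand setting and version numbers: not given in the sources used here. Interval bounds of the RSEM TPM (unit other) were deposited by the authors and not used for tests. Gene symbols came from the kallisto identifiers. Members and gene lists were chosen with earlier results of these data known. Named genes were all 7 members, all genes of the pathway lists (each of at most 12 genes), the 3 nearest to the highest member, and isoforms with at least 10% of a gene's mean TPM; Birc3-203 and Birc3-207 were added after their values were seen, and Traf1-202 is named as the model that numbers the introns.

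Levels are means of 3 libraries with SD. CPM were expected counts divided by the gene total. A gene counted as undetected with at most 3 counts in each library. Pairs were tested by exact sign flips of log2(TPM + 1), and isoform balance with limma (version 3.58.1, R 4.3.3) on log2 of TPM + 0.1, a script tested on simulated data. Other steps ran in Python 3.11.15 (pandas 2.3.3, numpy 2.4.6, matplotlib 3.10.9). Words of 31 bases were matched between GENCODE M21 transcripts. TPM divide by effective length, so isoforms near fragment length (250 to 400 bases) gain a large TPM from few counts. Effective lengths of short isoforms differed by library, with 212, 110.2 and 124 bases for Birc3-206 in replicates 1, 2 and 3. The same count of such an isoform is therefore scaled differently in each library. Alternatives were kallisto values, posterior mean TPM, CPM, other pseudocounts and filters, each library left out, and isoforms of at least 1000 bases, the last added after seeing the data, as were kallisto values and the mean without replicate 2 for single pathway genes.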

Additional observations from a re-analysis of the deposited data

How the results depend on the processing

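No paired analysis was possible because all 3 libraries belong to 1 group. Kallisto values moved Birc3 to 551, Traf3 to 18.2 and Traf5 to 40.2 TPM, and isoforms of at least 1000 bases moved Traf1 to 309.6, Traf3 to 6.59 and Birc3 to 146 TPM. CPM, another unit, gave 601 for Traf1, 371 for Birc3, 97.7 for Birc2, 59.3 for Traf2, 35.5 for Traf3, 20.9 for Map3k14 and 8.35 for Traf5. The sign of each pair was kept under every alternative run. At 1 and 100 TPM, 38 and 8 of the other pathway genes and 7 and 2 of the 7 genes counted. In the isoform balance, the count of genes with more retained-intron TPM was 1049, or 1810 with kallisto TPM, 681 at a filter of 20 TPM and 351 to 901 with a library left out; 1 of the 7 genes was so called with kallisto TPM and 2 with expected counts. With more protein-coding TPM it was 1104, or 2372 with expected counts, 552 at 20 TPM and 473 to 849 with a library left out; of the 7, 2 were so called, or 3 with kallisto TPM, 1 at 20 TPM and 1 to 2 with a library left out. The largest drops to 351 and 473 were without replicate 3, and 676 was reached without replicate 1. The ratio reversed to -0.60 in Traf1 with kallisto TPM and to 0.35 in Traf2 with kallisto TPM and with expected counts. The cause of these changes was not tested. Depth limits the low genes most, since Traf5 rests on 84 to 154 counts.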
